A study of Mus musculus with 18 samples.

Results

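A set of 10 genes of the Notch pathway and of the choice of secretory fate were followed through all 18 RNA-seq libraries of the series, taken from the count table by symbol, with earlier results of these data known: Notch1, Notch2, Jag1, Dll1, Dll4, Hes1, Hes6, Nrarp, Atoh1 and Gfi1. All 10 were found among the 36757 genes of the count table, and all 10 passed the filter on low counts in every comparison. The libraries came from C57BL/6 mice of 6 to 8 weeks at the start, in 3 models with 3 wild-type libraries and 3 libraries labelled RNF138-/- each. The control mice are called wild type in the labels and RNF138fl/fl in the protocol, so they carry the floxed allele. RNF138 is a RING-type E3 ubiquitin ligase, and neither the labels nor the methods name the cell type in which it was deleted. In the colitis model, mice drank 2% dextran sulfate sodium (DSS), a detergent-like polymer that injures the colon epithelium, for 7 days and then plain water for 14 days in repeated cycles, and were killed 4 weeks after the last cycle. In the colitis-associated cancer (CAC) model, azoxymethane (AOM, 10 mg/kg), a carcinogen, was injected 4 days before the same DSS cycles, and colorectal tissue was taken. The organoids were grown in matrigel from tumor-bearing pieces of CAC intestine. Every library comes from DSS-treated animals or cells derived from them, and untreated colon was not analysed here. The sources do not say whether the 3 libraries of a group are 3 animals, so p-values measure the spread between these libraries, which may be technical.

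Notch is a signal passed between touching cells. A ligand of the Delta (Dll1, Dll4) or Jagged (Jag1) family on one cell engages a Notch receptor on its neighbor, the receptor is cleaved, and its intracellular part enters the nucleus, joins the DNA-binding protein RBPJ and switches on targets such as the repressor gene Hes1 and the feedback gene Nrarp. In intestinal crypts Hes1 represses Atoh1, the transcription factor that commits a progenitor to the secretory lineages (goblet, enteroendocrine, tuft and Paneth cells), so that Notch-active cells become absorptive. Secretory precursors in turn display Dll1 and Dll4, and Gfi1 acts downstream of Atoh1 in goblet and Paneth cells. Hes6 is a Hes family member that opposes Hes1 and is found in secretory precursors.

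The genes lie on autosomes of mm10 (GENCODE M21): Notch1 at chr2:26457903-26516663 (minus strand), Notch2 at chr3:98013527-98150361 (plus), Jag1 at chr2:137081456-137116644 (minus), Dll1 at chr17:15367354-15376872 (minus), Dll4 at chr2:119325784-119335962 (plus), Hes1 at chr16:30064384-30067796 (plus), Hes6 at chr1:91411483-91414038 (minus), Nrarp at chr2:25180758-25183339 (plus), Atoh1 at chr6:64729125-64731245 (plus) and Gfi1 at chr5:107716657-107726036 (minus). Genes on the opposite strand share 79.4% of the exon bases of Nrarp (Gm38287) and 20.6% of those of Dll1 (A930024N18Rik). The strand setting of the counting is not given in the sources used here, so reads of these pairs cannot be told apart, and the levels of Nrarp and Dll1 are uncertain. Between 0 and 3.76% (Notch2) of a gene's 50-base windows occur in transcripts of another gene.

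Promoter sequence was available from RefSeq (GRCm38.p6, the assembly behind mm10) for 9 of the 10 genes, all but Hes1. The 250 bases before the start of Atoh1, Hes6 and Dll4 are printed because Atoh1 was called in CAC, and the genotype differences of the other genes had opposite signs in CAC and in organoids and passed the test of that contrast in every fit with a library left out. Capitals mark matches on either strand to 4 letter strings: TGGGAA, the core that RBPJ binds, CAGCTG and CACGTG, E-boxes that basic helix-loop-helix proteins such as ATOH1 and the HES proteins can bind, and CACNAG, the N-box of HES proteins. The plus strand of the chromosome is shown for Atoh1 (chr6:64728875-64729124) and Dll4 (chr2:119325534-119325783), and the minus strand for Hes6 (chr1:91414039-91414288, before the first of its RefSeq starts).
Atoh1: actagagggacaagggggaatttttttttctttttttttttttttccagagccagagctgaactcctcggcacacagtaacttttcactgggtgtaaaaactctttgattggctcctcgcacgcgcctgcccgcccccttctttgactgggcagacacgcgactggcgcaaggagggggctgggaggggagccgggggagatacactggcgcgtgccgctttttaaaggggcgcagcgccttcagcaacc
Hes6: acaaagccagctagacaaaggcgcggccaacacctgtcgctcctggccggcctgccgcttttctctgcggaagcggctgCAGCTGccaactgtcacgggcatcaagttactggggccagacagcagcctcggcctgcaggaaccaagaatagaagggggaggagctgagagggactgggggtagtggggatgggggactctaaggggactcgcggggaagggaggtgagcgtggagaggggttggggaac
Dll4: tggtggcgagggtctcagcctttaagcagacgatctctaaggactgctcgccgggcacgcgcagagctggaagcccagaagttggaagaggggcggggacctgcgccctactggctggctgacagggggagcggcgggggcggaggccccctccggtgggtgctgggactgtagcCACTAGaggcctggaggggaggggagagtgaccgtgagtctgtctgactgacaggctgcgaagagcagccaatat
The Hes6 window holds 1 CAGCTG, at −171 to −166 from the start, and the Dll4 window holds 1 CACNAG match, at −75 to −70. The Atoh1 window holds none of the 4 strings, and no matches overlap. Among all 32851 promoter windows of this length, 21.6% hold TGGGAA, 13% hold CAGCTG, 6.02% hold CACGTG and 36.7% hold CACNAG. A match is a run of letters and not a bound site, and the absence of a match in 250 bases says nothing of more distant sites.

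Total counts were between 11514716 and 24390082 per library, and levels are given as CPM, counts relative to the library total scaled by the TMM method. Rnf138 itself was not lower in the libraries labelled RNF138-/-. Its log2 fold change was −0.06 in colitis (SE 0.22, edgeR, adjusted p = 0.963), 0.72 in CAC (SE 0.14, adjusted p = 0.0426) and −0.10 in organoids (SE 0.16, adjusted p = 0.668), and a count per gene cannot show a missing exon. The labels are used here as given. In colitis and CAC every library had counts of 4 Y-linked genes (1911 to 4983) and at most 11 of Xist, whereas the 3 wild-type organoid libraries had 0 Y-linked counts and 4924 to 6881 of Xist and the 3 labelled RNF138-/- had 3239 to 5315 and at most 3. Sex and genotype therefore cannot be told apart in organoids. Epithelial markers, with Epcam first among them, were present in every library, and in bulk RNA fewer cells of a type and less RNA per cell cannot be told apart.

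**Figure D1:**
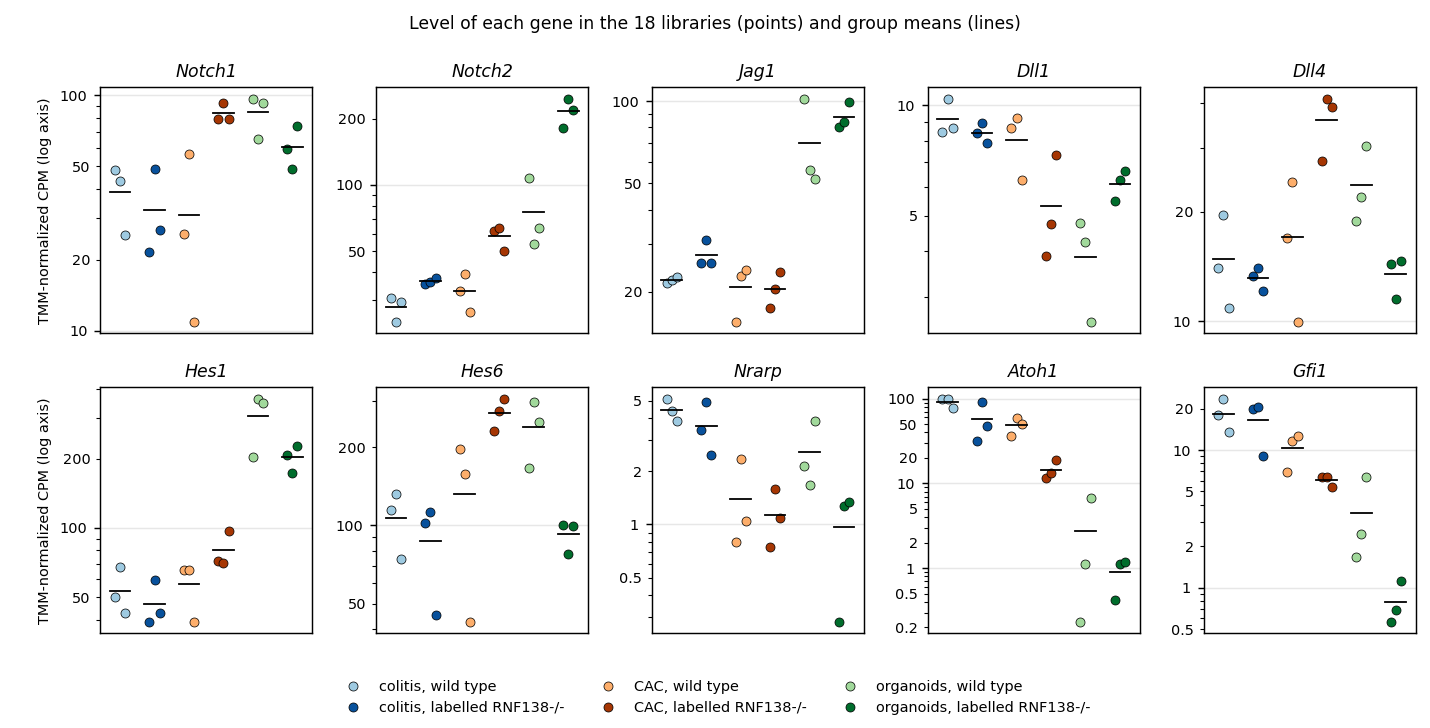
Level of each of the 10 genes in TMM-normalized CPM (log axis) in the 18 libraries, colored by model and genotype, with lines for group means. Atoh1 runs from 100 CPM in a wild-type colitis library to 0.231 CPM in a wild-type organoid library, while Hes1 and Jag1 are highest in the organoids.

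Per kilobase of exon, Hes6 and Hes1 had higher mean levels than the receptors and ligands in all 6 groups, and Atoh1 did so in colitis and in wild-type CAC. In wild-type colitis tissue the mean levels were 59.3 CPM per kb for Hes6, 43.4 for Atoh1 and 26.3 for Hes1, and between 1.72 (Nrarp) and 5.77 (Gfi1) for the other 7 genes. In wild-type CAC tissue Hes6 had 73.1 ± 44.4 CPM per kb (SD, n = 3), Hes1 27.9 ± 7.53 and Atoh1 22.8 ± 5.42, and in wild-type organoids Hes1 had 150 ± 43.5, Hes6 132 ± 36.8 and Atoh1 1.28 ± 1.68. The mean levels of the receptors were close in wild-type colitis, with 2.73 ± 0.829 for Notch1 and 2.58 ± 0.331 CPM per kb for Notch2. In wild-type CAC they were 2.17 ± 1.63 for Notch1 and 3.06 ± 0.611 for Notch2. Counts of Notch2 were 0.702 to 2.42 times those of Notch1 in these CAC libraries. Among the ligands Jag1 had the highest level in organoids (12.001 ± 4.80 CPM per kb in wild type) and Dll1 the lowest (0.915 ± 0.274). These wild-type values rest on between 4 counts (Atoh1 in an organoid library) and 5190 (Hes1 in another) per library, and the lowest levels are the least precise.

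In order of mean CPM, Atoh1 was ordered from wild-type colitis (92.1) through colitis labelled RNF138-/- (56.8), wild-type CAC (48.3) and CAC labelled RNF138-/- (14.6) to wild-type organoids (2.72) and organoids labelled RNF138-/- (0.909). Its ranges overlapped between neighbors among the first 3 groups and between the organoid groups, and not elsewhere in that order. Gfi1 had the same order of groups, from 18.4 to 0.790 CPM. Hes1 had close to the reverse order, with 306 CPM in wild-type organoids, 203 in organoids labelled RNF138-/- and 80.0 in CAC labelled RNF138-/-, followed by 56.9 in wild-type CAC and 53.5 and 47.0 in colitis, whose ranges overlapped. Dll4 and Hes6 both peaked in CAC labelled RNF138-/- (35.8 and 271 CPM) and were lowest in colitis labelled RNF138-/- (13.1 and 86.9 CPM).

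The comparison of genotypes in colitis asks whether loss of RNF138 goes with a different Notch or secretory program in chronically inflamed colon. None of the 10 genes passed the test (edgeR quasi-likelihood test with Benjamini-Hochberg adjustment, adjusted p under 0.05), 0 of 10 had an unadjusted p under 0.05 (10.4% of all genes did) and DESeq2 called 0, in a model where 0.0902% of 16623 genes were called. With the replicate number as a block, 91 genes were called in place of 15 and 0 of the 10. The largest difference was in Atoh1, with 98.9, 100 and 77.2 CPM in wild-type libraries 1 to 3 and 31.9, 90.4 and 48.2 CPM in those labelled RNF138-/-. The second of these was within the wild-type range, and the difference did not pass (log2 value −0.70, SE 0.36, edgeR adjusted p = 0.558). The receptor Notch2 had 30.4, 23.8 and 29.3 CPM in wild-type libraries and 35.5, 36.2 and 37.8 CPM in those labelled RNF138-/-, so the groups did not overlap (log2 difference 0.39, SE 0.18, edgeR adjusted p = 0.497). The ligand Jag1 had 21.6, 22.02 and 22.5 against 25.4, 30.8 and 25.4 CPM, again without overlap (log2 fold change 0.30, SE 0.17, edgeR, adjusted p = 0.613). Groups without overlap were seen for 2 of the 10 genes, both higher, where 8.87% of all genes did not overlap and were higher. The other 7 genes overlapped, with log2 fold changes between −0.31 (Nrarp) and −0.13 (Dll1).

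In CAC the comparison asks the same of tumor-bearing tissue, and Atoh1 was the only one of the 10 genes past the test, where 6.38% of 17752 genes were called and 5.33% were lower. Atoh1 had 35.9, 58.7 and 50.2 CPM in the wild-type libraries and 11.6, 13.3 and 18.8 CPM in those labelled RNF138-/-. The 3 libraries labelled RNF138-/- were all under the lowest wild-type one, a 3.44-fold lower level (log2 fold change −1.78, SE 0.26, edgeR, adjusted p = 0.0278). The call was lost without replicate 1 (adjusted p = 0.0957), 2 (0.135) or 3 (0.0538) labelled RNF138-/- and held without each wild-type library. It was also lost when libraries were scaled to the epithelial markers (log2 fold change −1.20, adjusted p = 0.0856) and with the Y-linked counts as a covariate, which left 0 genes called in all (−2.04, adjusted p = 0.236), and DESeq2 gave 4.15e-07. Per 1000 CPM of epithelial markers, Atoh1 was at 3.03, 7.06 and 3.36 CPM in wild-type libraries and at 1.38, 1.88 and 2.58 CPM in those labelled RNF138-/-, which still did not overlap. Other cell types moved in the same libraries. The 8 smooth muscle markers summed to 2642 to 8808 CPM in wild-type libraries and to 119 to 255 CPM in those labelled RNF138-/- (8 of 8 lower by edgeR), and 6 B and plasma cell markers to 1505 to 2267 against 124.8 to 215 CPM (6 of 6 lower). The 8 epithelial markers summed to 8311 to 14935 against 7086 to 8414 CPM with 0 of 8 called, and 0 were called among 8 endothelial, 7 fibroblast, 6 T cell and 8 myeloid markers. The part of these cells in the Atoh1 value was not tested.

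The receptors and Dll4 were higher in each CAC library labelled RNF138-/- than in any wild-type library, without passing the test. Notch1 had 25.7, 56.2 and 10.9 CPM in wild-type libraries and 79.0, 92.8 and 79.2 CPM in those labelled RNF138-/- (log2 fold change 1.38, SE 0.52, edgeR, adjusted p = 0.123). Notch2 had 33.0, 39.5 and 26.3 against 61.4, 63.5 and 49.98 CPM (log2 fold change 0.77, SE 0.18, edgeR, adjusted p = 0.0554). The ligand Dll4 had 16.99, 24.2 and 9.94 against 27.6, 41.1 and 38.8 CPM (log2 fold change 1.02, SE 0.33, edgeR, adjusted p = 0.0916). Wild-type replicate 3, the library with the lowest total count, had the lowest Notch1, Notch2 and Dll4 of all CAC libraries. It also had the highest sums of absorptive products (19304 CPM) and smooth muscle markers (8808 CPM) among them. DESeq2 called Notch1, Notch2, Dll4 and Gfi1 as well as Atoh1, and the fit of all 18 libraries called Notch1, Notch2, Dll4 and Atoh1. DESeq2 also called more of all genes in CAC than edgeR, and on simulated data made 74 false calls there against 7. For the fit of all 18 libraries the share of all genes is not given here. Neither set of calls is therefore a result about these genes in particular. With a library left out Notch1 passed in 1 of 6 fits, that without wild-type replicate 2 (log2 fold change 2.15, edgeR, adjusted p = 0.0490). Over these fits its log2 fold change went down to 0.995 and its adjusted p up to 0.267.

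The Notch targets did not pass in CAC. Hes1 had 66.0, 65.5 and 39.2 CPM in wild-type libraries and 71.8, 70.7 and 97.3 CPM in those labelled RNF138-/- (log2 fold change 0.44, SE 0.24, edgeR, adjusted p = 0.229), and Nrarp had between 0.744 and 2.35 CPM with overlapping groups (−0.37, adjusted p = 0.622). Of the secretory regulators, Hes6 had 197, 157 and 42.4 against 230, 276 and 308 CPM (0.99, SE 0.50, edgeR, adjusted p = 0.209), whereas Gfi1 had 6.95, 11.6 and 12.7 against 6.38, 6.40 and 5.39 CPM (−0.83, SE 0.28, edgeR, adjusted p = 0.0986). Hes6 and Gfi1 thus differed in opposite directions, each without overlap between the groups. In all, 7 of the 10 genes did not overlap, 5 higher (Notch1, Notch2, Dll4, Hes1 and Hes6) and 2 lower (Atoh1 and Gfi1), where 45.2% of all genes did not overlap (24.5% higher and 20.7% lower). Dll1 and Jag1 overlapped, with log2 fold changes of −0.65 (adjusted p = 0.182) and −0.07 (adjusted p = 0.841), and that of Jag1 turned to 0.21 with total counts and 0.54 with epithelial scaling. Without TMM factors the median log2 fold change of all genes shifted by 0.26 in CAC and −0.20 in organoids, so the changes given here are relative to the bulk of genes.

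**Figure D2:**
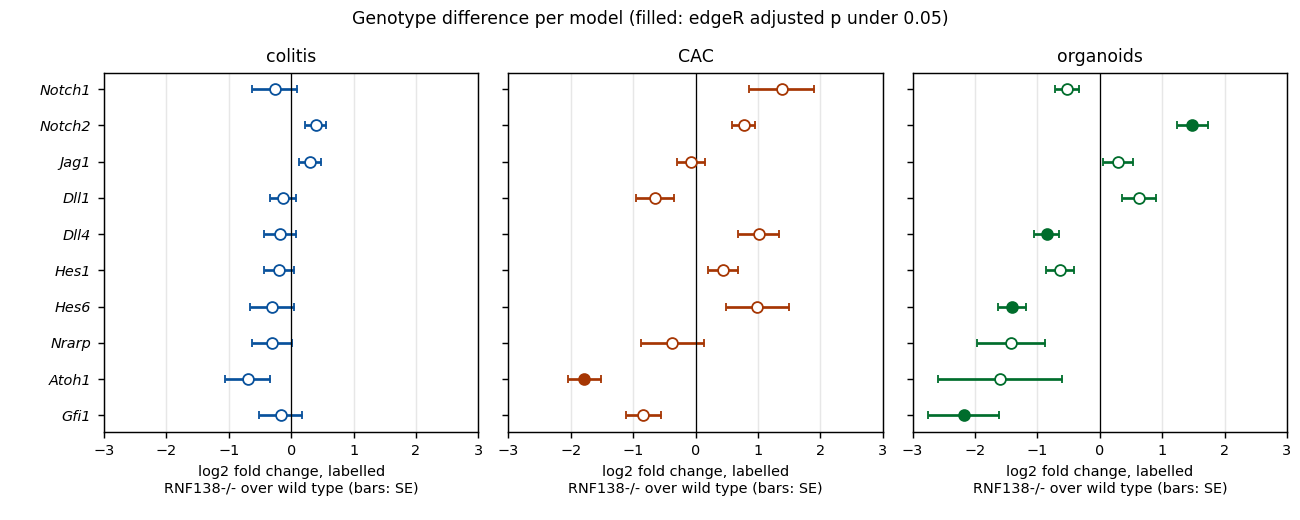
Log2 fold change of each gene between libraries labelled RNF138-/- and wild-type libraries in the 3 models, with the standard error from edgeR as bars and filled points for an adjusted p under 0.05. No gene is filled in colitis, Atoh1 is in CAC (−1.78), and Notch2 (1.48), Dll4 (−0.85), Hes6 (−1.41) and Gfi1 (−2.18) are in organoids.

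In the organoids 4 of the 10 genes passed, 1 higher and 3 lower, where 35.5% of 15294 genes were called (17.9% higher and 17.7% lower). Notch2 had 108, 53.9 and 63.9 CPM in wild-type libraries and 181, 247 and 219 CPM in those labelled RNF138-/-, a 2.80-fold higher level (log2 fold change 1.48, SE 0.25, edgeR, adjusted p = 0.00432). The other receptor, Notch1, had 96.8, 65.1 and 92.6 against 59.1, 48.5 and 73.8 CPM with overlapping groups (−0.53, SE 0.19, edgeR, adjusted p = 0.0612), and its sign turned with epithelial scaling (0.07). Reads on Notch2 were 0.690 to 1.11 times those on Notch1 in wild-type libraries and 2.97 to 5.09 times in those labelled RNF138-/-, and 0.550 to 2.42 times in all tissue libraries.

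The secretory regulators Hes6 and Gfi1 were lower in the organoid libraries labelled RNF138-/-. Hes6 had 167, 298 and 251 CPM in wild-type libraries and 101, 77.3 and 99.3 CPM in the others, a 2.66-fold lower level (log2 fold change −1.41, SE 0.22, edgeR, adjusted p = 0.00368). Gfi1 had 1.67, 2.47 and 6.34 against 0.562, 0.688 and 1.12 CPM, from 8 to 94 counts per library, a 4.54-fold lower level (−2.18, SE 0.56, edgeR, adjusted p = 0.0197). The groups did not overlap for either gene, and wild-type replicate 3 was the highest for Gfi1 by a wide margin. For organoids the share of all genes without overlap is not given here, so lack of overlap there is a description only. The Gfi1 call was lost without replicate 1 (adjusted p = 0.0696) or 2 (0.0773) labelled RNF138-/-. Without wild-type replicate 3 the log2 value of Gfi1 was −1.43 (adjusted p = 0.0413). Atoh1 was barely detected, with 4, 14 and 101 counts (0.231, 1.12 and 6.81 CPM) in wild-type libraries and 6, 21 and 16 counts (0.421, 1.11 and 1.19 CPM) in the others. Its log2 difference, −1.60 with an SE of 0.99 (edgeR adjusted p = 0.235), rested on wild-type replicate 3, without which it was 0.48 (adjusted p = 0.630), and without wild-type replicate 1 it was −2.13 (adjusted p = 0.0377).

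Among the ligands, Dll4 was lower in the organoids labelled RNF138-/-, with 18.9, 21.9 and 30.4 CPM in wild-type libraries and 14.4, 11.5 and 14.6 CPM in the others, a 1.81-fold lower level without overlap (log2 fold change −0.85, SE 0.20, edgeR, adjusted p = 0.0150). The call was lost without replicate 2 labelled RNF138-/- (adjusted p = 0.0653), in the fit of all 18 libraries (0.0650) and with epithelial scaling (log2 fold change −0.26, adjusted p = 0.448). Dll1 had 4.79, 4.23 and 2.56 against 5.48, 6.25 and 6.64 CPM (0.62, SE 0.27, edgeR, adjusted p = 0.104), and Jag1 had 102, 55.7 and 51.9 against 80.4, 83.6 and 99.002 CPM (0.29, SE 0.24, edgeR, adjusted p = 0.373). Without wild-type replicate 1, Dll1 (0.83, adjusted p = 0.0477) and Jag1 (0.68, adjusted p = 0.00401) passed, as they did with epithelial scaling (Dll1 1.26, adjusted p = 0.00265, and Jag1 0.92, adjusted p = 0.000944). Of the targets, Hes1 had 204, 364 and 350 against 208, 173 and 226 CPM (−0.64, SE 0.23, edgeR, adjusted p = 0.0586) and passed without wild-type replicate 1 (−0.84, adjusted p = 0.00192), and Nrarp had 2.13, 1.68 and 3.85 against 0.281, 1.27 and 1.34 CPM, from 4 to 57 counts (−1.42, SE 0.54, edgeR, adjusted p = 0.0717). Both targets passed with DESeq2 (Hes1 0.0322 and Nrarp 0.0444 adjusted), without the filter and with total counts, and with epithelial scaling they were at −0.05 (adjusted p = 0.894) and −0.76 (adjusted p = 0.182). With wild-type replicate 1 left out, 8 of the 10 genes passed, where 6871 of all genes were called in place of 5436. Notch1 passed without wild-type replicate 2 (−0.68, adjusted p = 0.0349), without the filter, with the replicate block and with total counts, and the calls of Notch2 and Hes6 held with each of the 6 libraries left out.

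**Figure D3:**
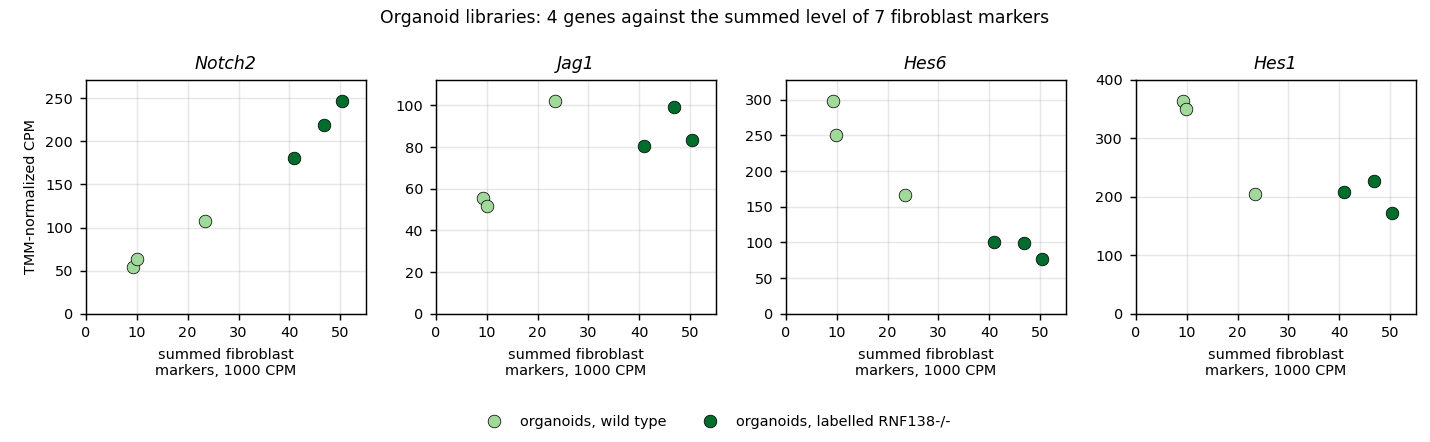
Notch2, Jag1, Hes6 and Hes1 in TMM-normalized CPM against the summed level of 7 fibroblast markers (CPM divided by 1000) in the 6 organoid libraries. The wild-type library with 23505 CPM of fibroblast markers is replicate 1, which has the most Notch2 (108) and Jag1 (102) and the least Hes6 (167) and Hes1 (204) of the wild-type libraries.

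The cultures labelled organoids held many fibroblast transcripts, and more in the libraries labelled RNF138-/-. The 7 fibroblast markers, all 7 higher by edgeR, summed to 23505, 9234 and 9966 CPM in wild-type libraries, against 938 to 1753 CPM in all tissue libraries. Wild-type replicate 1 had the highest of these 3 sums, the highest Notch2 and Jag1 of its group, and the lowest Hes1 and Hes6. In the 3 libraries labelled RNF138-/- the fibroblast sums were 40975, 50354 and 46803 CPM, and Notch2 followed in the same order of libraries, with 181, 247 and 219 CPM. Among the 6 organoid libraries the order of Notch2 was the order of the fibroblast sum, and Hes6 ran the opposite way in all 6. These are descriptions over libraries that differ by genotype, and the part of fibroblasts in the values was not tested. Of the other markers in the libraries labelled RNF138-/-, 5 of 8 epithelial ones were lower (sums of 10448 to 11344 in wild type against 5822 to 8556 CPM), 5 of 7 tested myeloid ones (23.0 to 32.8 against 104 to 159 CPM) and 2 of 8 smooth muscle ones were higher, and 2 of 5 endothelial ones (17.99 to 23.5 against 7.44 to 9.78 CPM), 1 of 2 T cell ones and the 1 B cell marker tested were lower. Cd3e, which defines T cells, was at 0 in all 6. With epithelial scaling Notch2 remained higher (log2 fold change 2.15) and Hes6 lower (−0.82, edgeR, adjusted p = 0.00432).

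Whether the genotype differences themselves differed between models was tested as an interaction in 1 fit of all 18 libraries. Between organoids and CAC 5 of the 10 genes passed, where 23.3% of 19390 genes were called. The difference was smaller (more negative) in organoids for Hes6 by −2.40 (SE 0.61, edgeR, adjusted p = 0.0106), for Notch1 by −1.92 (SE 0.60, adjusted p = 0.0312), for Dll4 by −1.88 (SE 0.41, adjusted p = 0.00456) and for Hes1 by −1.08 (SE 0.37, adjusted p = 0.0429), all on the log2 scale, and larger for Dll1 by 1.26 (SE 0.39, adjusted p = 0.0270). Each of the 5 genes had opposite signs in CAC and in organoids. The other 5 did not pass, with −1.37 for Gfi1 (adjusted p = 0.135), −1.07 for Nrarp (0.314), 0.17 for Atoh1 (0.943), 0.34 for Jag1 (0.484) and 0.70 for Notch2 (0.117). With a library left out Gfi1 ran from −1.71 to −0.59, the latter without organoid wild-type replicate 3, and Notch2 passed in 1 of 12 fits, that without organoid wild-type replicate 1 (1.06, adjusted p = 0.00875). Without CAC wild-type replicate 2 the value for Notch1 was −2.65. With 1 of the 12 libraries left out in turn, Dll4 and Hes6 passed in 12 of 12 fits, Dll1 in 7, Notch1 in 5 and Hes1 in 3. The Hes1 call held only without CAC wild-type replicate 1 or 2 or organoid wild-type replicate 1, and its adjusted p was up to 0.114 otherwise. That of Notch1 was up to 0.0786, with the call lost without wild-type replicate 1 or replicates 2 or 3 labelled RNF138-/- of CAC, or wild-type replicates 1 or 3 or replicates 1 or 2 labelled RNF138-/- of the organoids. That of Dll1 was up to 0.0642, with the call lost without CAC replicates 1 or 2 labelled RNF138-/-, organoid wild-type replicate 3, or organoid replicates 2 or 3 labelled RNF138-/-. Dll1 also did not pass without the filter (adjusted p = 0.0606), and with the replicate block neither Dll1 (0.0526) nor Hes1 (0.0564) passed, while Gfi1 did (−1.27, adjusted p = 0.0478). Between organoids and colitis 1 of the 10 passed, where 7.11% of genes were called. It was Notch2, whose difference was larger in organoids by 1.13 (SE 0.31, edgeR, adjusted p = 0.0409), and it passed in 4 of 12 fits with a library left out, those without colitis wild-type replicate 2, colitis replicate 3 labelled RNF138-/-, organoid wild-type replicate 1 or organoid replicate 1 labelled RNF138-/- (adjusted p up to 0.114 in the others), and not with the replicate block (0.0507). The other 9 ran from −1.99 (Gfi1, adjusted p = 0.0703) to 0.79 (Dll1, adjusted p = 0.212) and did not pass. Gfi1 passed without colitis replicate 3 labelled RNF138-/- (−2.29, adjusted p = 0.0343) or organoid wild-type replicate 1 (−2.32, adjusted p = 0.0254), with DESeq2 (0.0241), without the filter (0.0469) and with the block (0.0326), and was −1.25 without organoid wild-type replicate 3. Between CAC and colitis 0 of the 10 passed by edgeR (3 at an unadjusted p under 0.05, as were 30.1% of all genes) and 2 by DESeq2, Dll4 and Notch1, where edgeR called 14.1% of genes (2733 of 19390) and DESeq2 3665. Dll4 and Notch1 also passed without the filter and with the replicate block, for which the count over all genes is not given here. The values ran from −1.03 (Atoh1) to 1.69 (Notch1, adjusted p = 0.0720). Notch1 passed without CAC wild-type replicate 2 (2.41, adjusted p = 0.00521) or colitis replicate 2 labelled RNF138-/- (2.05, adjusted p = 0.0411), and Dll4 (1.24, adjusted p = 0.0524) passed without CAC wild-type replicate 2 (0.0138), colitis wild-type replicate 3 (0.0491) or CAC replicate 1 labelled RNF138-/- (0.0491). For Atoh1 the difference between CAC and colitis was −1.03 (SE 0.83, edgeR, adjusted p = 0.438), so its lower level in CAC libraries labelled RNF138-/- was not shown to be particular to CAC.

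Levels were also compared between models within a genotype. Model, tissue source and culture differ together in these comparisons and cannot be told apart. Sex differs as well between wild-type organoids (0 Y-linked counts) and wild-type CAC (2415 to 4001), and cannot be told apart from the rest. In wild-type libraries CAC and colitis differed in 1 of the 10 genes, where 19.8% of 19390 genes were called. Nrarp, which Notch switches on and which restrains it, was lower in CAC (0.800, 2.35 and 1.04 CPM) than in colitis (5.14, 4.38 and 3.84 CPM), by −1.64 (SE 0.51, edgeR, adjusted p = 0.0328), and the call was lost without colitis replicate 1 (adjusted p = 0.0958) or 2 (0.0651) or CAC replicate 1 (0.121) or 3 (0.0755). Without CAC replicate 2 the value was −2.31. The levels of Atoh1 (−0.93, adjusted p = 0.281) and Gfi1 (−0.82, adjusted p = 0.176) did not overlap between those groups and did not pass. The share of all genes without overlap is not given for this comparison, so the lack of overlap is a description only. In a fit of the 6 libraries alone Atoh1 passed (−0.91, adjusted p = 0.0377) and Nrarp did not (−1.61, adjusted p = 0.0534). The other 7 genes overlapped, from −0.32 (Notch1, adjusted p = 0.628) to 0.30 (Hes6, adjusted p = 0.649). In the same comparison 4 of 10 stem and progenitor genes were higher and 1 lower, 5 of 21 other secretory regulators were lower, 4 of 13 enteroendocrine products were lower and 1 higher, 2 of 14 goblet products were lower and 1 higher, 1 of 10 tuft cell products was higher and 1 of 14 absorptive products lower. Of the cell type markers 1 of 6 B and plasma cell ones was higher and 1 of 8 myeloid ones lower, and 0 were called among 8 epithelial, 8 endothelial, 8 smooth muscle, 7 fibroblast and 6 T cell ones. Their part in the values of the 10 genes was not tested.

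In the libraries labelled RNF138-/-, 9 of the 10 genes differed between CAC and colitis, where 54.7% of genes were called. The receptors Notch1 (1.37, SE 0.43, edgeR, adjusted p = 0.0134) and Notch2 (0.68, adjusted p = 0.0174), the ligand Dll4 (1.45, adjusted p = 0.000676) and Hes1 (0.77, adjusted p = 0.0208) and Hes6 (1.64, adjusted p = 0.00487) were higher in CAC. Atoh1 (−1.96, SE 0.61, edgeR, adjusted p = 0.0125), Gfi1 (−1.44, adjusted p = 0.00892), Nrarp (−1.65, adjusted p = 0.0121) and Dll1 (−0.66, adjusted p = 0.0473) were lower, and Jag1 did not pass (−0.41, adjusted p = 0.142). These values share their libraries with the genotype comparisons above and are no separate evidence for them. With a library left out, between 6 and 8 of the 10 passed, and Dll4, Hes6 and Gfi1 passed in all 6 fits. Without colitis replicate 1 the calls of Notch1 (adjusted p = 0.0621), Hes1 (0.0827) and Dll1 (0.0838) were lost, without colitis replicate 2 those of Atoh1 (0.0565), Notch2 (0.0779) and Dll1 (0.0679), and without colitis replicate 3 those of Notch1 (0.0523) and Hes1 (0.0775). Without CAC replicate 1 those of Nrarp (0.0517) and Dll1 (0.179) were lost, without replicate 2 those of Notch2 (0.0602) and Dll1 (0.140), and without replicate 3 that of Hes1 (0.0950). Dll1 also did not pass without the filter (adjusted p = 0.115) or in a fit of the 6 libraries alone (0.0909). In the same comparison 8 of 8 smooth muscle markers (median −5.78), 6 of 6 B and plasma cell markers (−3.68), 9 of 14 goblet (−2.68), 13 of 13 enteroendocrine (−3.87) and 12 of 14 absorptive products (−5.19) were lower and 7 of 10 stem and progenitor genes were higher (2.32). Of 21 other secretory regulators 12 were lower and 2 higher, and of 10 tuft cell products 6 were lower and 3 higher. Of the other markers 3 of 8 epithelial ones were lower and 1 higher, and 3 of 6 T cell ones lower and 1 higher. Among 8 myeloid markers 3 were higher and 1 lower, and 2 of 8 endothelial and 3 of 7 fibroblast ones were lower. The part of these cells in the values of the 10 genes was not tested.

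From CAC tissue to organoids, Hes1 and Jag1 were higher and Atoh1 and Gfi1 lower in both genotypes. In wild type this comparison is also one between sexes. In wild-type libraries 7 of the 10 genes were called, where 60.7% of genes were, with Hes1 5.37-fold (log2 2.43, SE 0.27) and Jag1 3.38-fold (1.76) higher in organoids, Notch1 (1.45) and Notch2 (1.19) higher, and Atoh1 17.8-fold (−4.15, SE 0.69), Gfi1 2.97-fold (−1.57) and Dll1 2.09-fold (−1.06) lower (edgeR, adjusted p up to 0.00869). In libraries labelled RNF138-/- 7 were called, where 59.9% of genes were, with Jag1 4.28-fold, Notch2 3.70-fold and Hes1 2.53-fold higher and Atoh1 15.8-fold, Gfi1 7.67-fold, Hes6 2.94-fold and Dll4 2.66-fold lower (adjusted p up to 0.00600). None of these calls was lost with a library left out. In a fit of the libraries of the 2 groups alone, Notch1 did not pass in wild type (1.40, adjusted p = 0.0557) and passed in the libraries labelled RNF138-/- (−0.44, adjusted p = 0.0412). With a library left out, Dll4 and Nrarp passed in wild type without CAC replicate 2 and Hes6 without CAC replicate 1. Without organoid wild-type replicate 3, the library with the most Atoh1 and Gfi1 of its group, the wild-type values were −6.26 for Atoh1 and −2.34 for Gfi1, and without CAC wild-type replicate 2 that of Notch1 was 2.19. The genes not called were Dll4 (0.47, adjusted p = 0.169), Hes6 (0.85, 0.0968) and Nrarp (0.84, 0.167) in wild type, and Notch1 (−0.47, 0.348), Dll1 (0.20, 0.530) and Nrarp (−0.24, 0.718) in the others. Cell type markers moved too. In wild type 6 of 7 fibroblast markers were higher, and 7 of 8 smooth muscle, 6 of 8 endothelial, 5 of 6 T cell, 6 of 6 B and plasma cell and 7 of 8 myeloid markers were lower. Of 8 epithelial markers 2 were lower and 1 higher there. Goblet (14 of 14), absorptive (13 of 14) and tuft products (6 of 10) were lower, and 8 of 13 enteroendocrine products were lower and 1 higher. Of 10 stem and progenitor genes 5 were higher and 2 lower. In the libraries labelled RNF138-/- 7 of 7 fibroblast and 5 of 8 smooth muscle markers were higher, and 7 of 8 endothelial, 5 of 6 T cell, 6 of 6 B and plasma cell and 8 of 8 myeloid markers were lower. Of 8 epithelial markers 2 were lower. Goblet products were lower in 12 of 14, absorptive ones in 5 of 14 (2 higher) and enteroendocrine ones in 1 of 13 (1 higher). Of 10 tuft products 4 were lower and 2 higher, and of 10 stem and progenitor genes 4 were lower and 1 higher. The part of these cells in the values of the 10 genes was not tested.

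**Figure D4:**
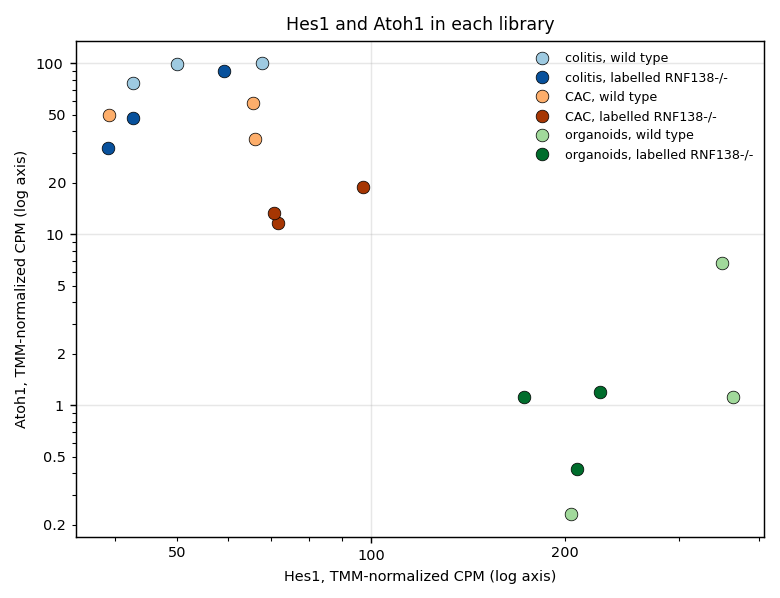
Hes1 against Atoh1 in TMM-normalized CPM in each of the 18 libraries (both axes log), colored by model and genotype. CAC libraries labelled RNF138-/- have Hes1 of 70.7 to 97.3 and Atoh1 of 11.6 to 18.8, under the Atoh1 of all other tissue libraries, and organoids have Hes1 above 172 and Atoh1 under 7.

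The ratio of Hes1 to Atoh1 counts within a library needs no scaling between libraries. It was 0.506 to 0.677 in wild-type colitis, 0.655 to 1.22 in colitis labelled RNF138-/-, 0.781 to 1.84 in wild-type CAC and 5.17 to 6.20 in CAC labelled RNF138-/-. The last 3 libraries were thus above all other tissue libraries. In organoids the ratio was 51.4 to 885 in wild-type libraries and 155 to 495 in the others, which overlapped, and it rested there on as few as 4 counts of Atoh1. The ratio of Dll4 to Jag1 counts was 0.415 to 1.0996 in wild-type CAC, 1.59 to 2.01 in CAC labelled RNF138-/-, 0.185 to 0.584 in wild-type organoids and 0.137 to 0.179 in organoids labelled RNF138-/-, without overlap between genotypes in either model. These ratios were not tested.

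The other genes of the pathway were taken from lists chosen for their function. In CAC 2 of 48 tested genes were called and both were lower, where 6.38% of all genes were called and 5.33% were lower: Neurl1b (−2.99, edgeR, adjusted p = 0.0471), a ubiquitin ligase that primes ligands, and Dtx1 (−2.29, adjusted p = 0.0299), a Deltex regulator of the receptor. None was called among 5 other receptors and ligands, 14 genes of receptor processing, 13 of the nuclear complex and 4 other Hes and Hey genes. Log2 fold changes were above 0 for 4 of 5 receptors and ligands (median 0.76), 8 of 14 processing (0.12) and 11 of 13 nuclear complex genes (0.27). They were above 0 for 4 of 12 trafficking (−0.24) and 1 of 4 Hes and Hey genes (−1.39), beside a median of 0.01 over all genes tested. In colitis 0 of 48 were called.

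In organoids the nuclear complex held the most calls, 5 of 13 higher and 2 lower. Rbpj, which encodes the DNA-binding partner of Notch, was higher by 1.35 (SE 0.17, edgeR, adjusted p = 0.00200), with a mean of 84.4 CPM in wild-type libraries and 220 CPM in the others. The co-repressor gene Spen (0.90, edgeR, adjusted p = 0.00430) and the co-activator gene Maml1 (0.55, adjusted p = 0.0147) were also higher, and the co-repressor genes Tle1 (−0.90, adjusted p = 0.00379) and Hdac1 (−0.31, adjusted p = 0.0327) were lower. Of 13 tested genes of receptor processing, 4 were higher, with Pofut1 (0.75), which adds the O-fucose that receptors need, and Adam17 (0.72), a protease of the extracellular cut, first, and Lfng, a sugar transferase that tunes ligand choice, was lower (−0.83, adjusted p = 0.0274). Adam10, another protease of that cut, had the opposite sign to Adam17 and was not called (−0.29, edgeR, adjusted p = 0.0890). Of 12 trafficking genes 3 were higher, led by Numbl (1.29), and Neurl1a was lower (−0.44). Of 6 other receptors and ligands Notch4 was higher (1.04, adjusted p = 0.0213) and Dner (−2.22, adjusted p = 0.00100) and Jag2 (−0.51, adjusted p = 0.0391) were lower. Hey1, another Notch target, was lower (−1.18, adjusted p = 0.00555). Together 13 of 46 tested genes were higher and 7 lower, against 17.9% and 17.7% of all genes.

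**Figure D5:**
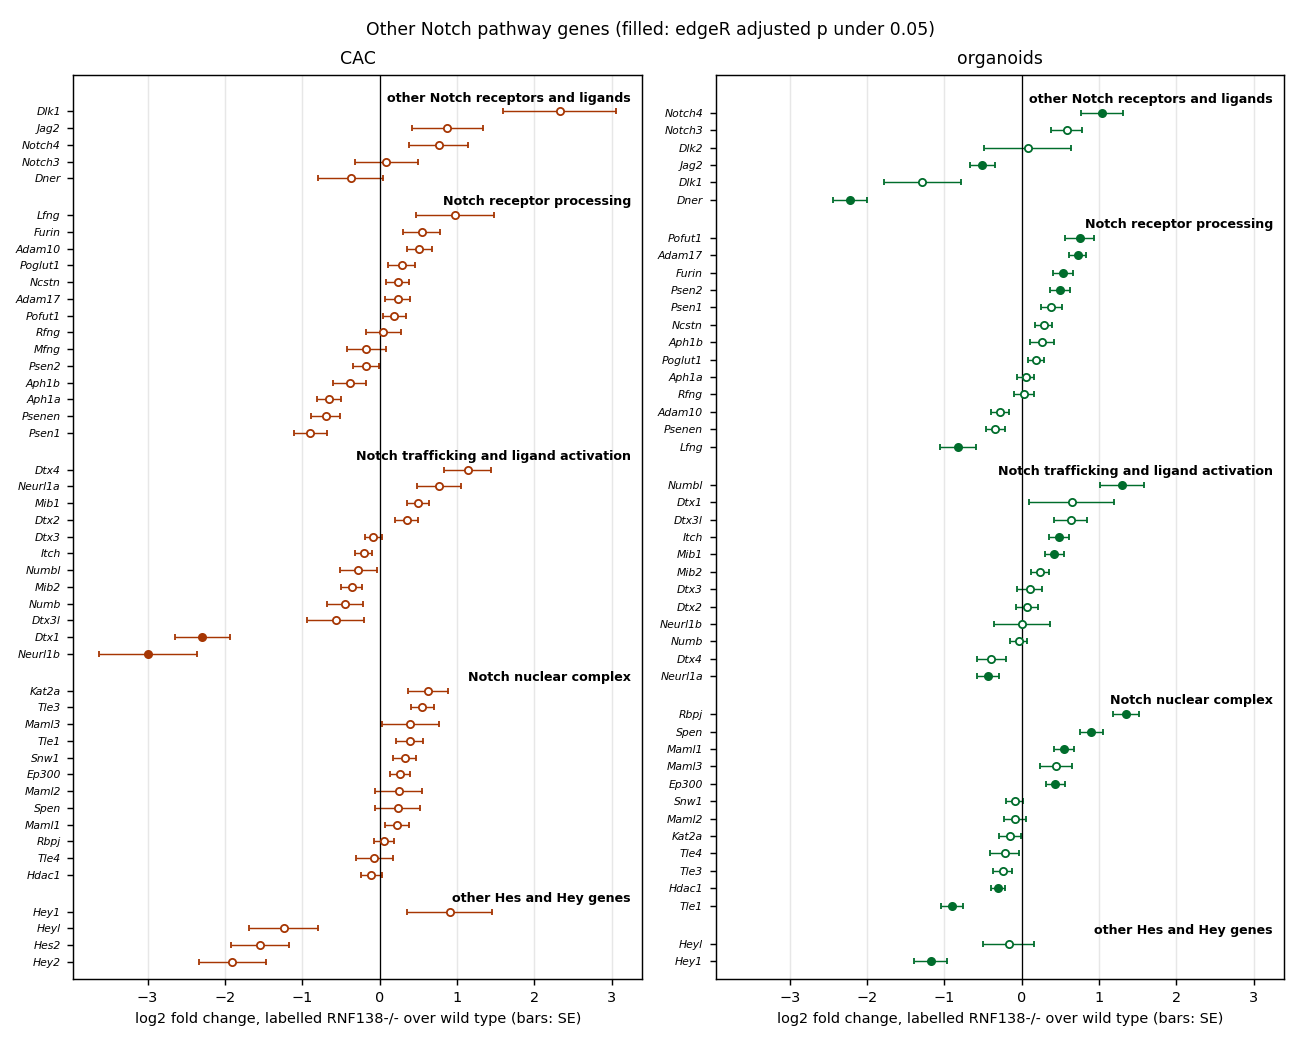
Log2 fold change with standard error of other Notch pathway genes in CAC and in organoids, grouped by function, with filled points for an adjusted p under 0.05. In CAC the filled points are Neurl1b and Dtx1, and in organoids Rbpj (1.35) has the largest positive and Dner (−2.22) the largest negative value.

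Goblet and enteroendocrine products were called lower in part in CAC libraries labelled RNF138-/-, where 5.33% of all genes were lower and 1.05% higher. Of 14 goblet cell products 7 were lower and 0 higher (median −1.94), among them Clca1 (−5.40, edgeR, adjusted p = 0.0381), Zg16 (−5.37, adjusted p = 0.0486), Fcgbp (−3.88, adjusted p = 0.0340) and the mucin gene Muc2 (−2.90, adjusted p = 0.0426), and their sum was 14686, 28075 and 45856 CPM in wild-type libraries and 3018, 2517 and 3889 CPM in the others. Of 12 enteroendocrine products 5 were lower (median −3.09), led by Sst (−8.29, adjusted p = 0.0310) and Gcg (−5.17, adjusted p = 0.0381), and of 18 other secretory regulators 2 were lower, Pax6 (−3.06, adjusted p = 0.0306) and Klf4 (−2.64, adjusted p = 0.0409). Tuft cell products had 0 of 8 called, with sums of 153, 181 and 221 CPM in wild-type libraries and 203, 271 and 192 CPM in the others. The absorptive products were lower too, 5 of 14 with a median of −4.86, among them Aqp8 (−7.87, adjusted p = 0.0168), with sums of 3769, 3102 and 19304 CPM against 722, 317 and 561 CPM. Of 10 stem and progenitor genes 1 was called, Cdca7 (1.57, edgeR, adjusted p = 0.0272), and 9 had a log2 fold change above 0 (median 1.66), with sums of 673 to 806 CPM in wild-type libraries and 1487 to 1891 CPM in the others, which did not overlap. Calls of lower level were thus found in both goblet and absorptive products, and the smooth muscle and plasma cell markers were lower in the same libraries.

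In organoids the goblet sums were 154, 218 and 614 CPM in wild-type libraries and 213, 205 and 226 CPM in the others, all far under those of tissue, and wild-type replicate 3, which had the most Atoh1 and Gfi1, had the most goblet and enteroendocrine product. Over all genes 17.7% were lower and 17.9% higher there, and the counts of the goblet products and of the secretory regulators below are near these shares. Of 12 goblet products tested there 2 were lower, Clca1 (−1.90, edgeR, adjusted p = 0.0189) and Zg16 (−1.84, adjusted p = 0.0185), and 3 of 7 enteroendocrine products were lower, Sct (−2.95), Scg2 (−2.37) and Chga (−1.55). Of 15 other secretory regulators 3 were lower, led by Foxa2 (−1.37, adjusted p = 0.0121), and 2 higher, Runx1t1 (1.99) and Creb3l1 (0.99). Tuft products split, with Ptgs1 (1.42) and Dclk1 (0.94) higher and Hpgds (−2.30) and Avil (−1.38) lower. Of 9 stem and progenitor genes 3 were lower, Axin2 (−1.53, adjusted p = 0.00135), Tnfrsf19 (−1.36) and Smoc2 (−1.26), and Lrig1 was higher (0.56). Of 12 absorptive products 2 were higher, Slc37a2 (1.98) and Slc20a1 (0.84), and Cyp2c55 was lower (−1.83). In colitis 1 gene of the secretory, absorptive, stem and cell type lists was called, the absorptive Slc37a2 (−1.89, edgeR, adjusted p = 0.0408), and 19 of 21 other secretory regulators had a log2 fold change under 0 (median −0.47, against 0.02 over all genes). Their sums overlapped, with 1632 to 2233 CPM in wild-type libraries and 900 to 1952 CPM in the others, lowest in replicate 3 labelled RNF138-/-. These genes share libraries, so their signs are not separate results.

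Genes with the most similar pattern were sought over the 18 libraries after subtracting each model's mean, among 12416 genes with a mean of at least 5 CPM. The libraries share genotype groups and cell composition, so the values are descriptions. The 3 nearest to Atoh1 were Hepacam2 (Pearson r = 0.90, Spearman rho = 0.88), Tff3 (0.90 and 0.88) and Agr2 (0.89 and 0.89), the last 2 of which encode goblet cell products. Those nearest to Notch1 were Dok7 (0.96 and 0.96), Tbc1d12 (0.95 and 0.91) and Sox9 (0.95 and 0.88), those nearest to Hes1 were Eif2b1 (0.89 and 0.88), Hoxa9 (0.88 and 0.89) and Ubxn10 (0.88 and 0.91), and those nearest to Gfi1 were Cox10 (0.87 and 0.86), 6430548M08Rik (0.86 and 0.88) and B3galt4 (0.86 and 0.90).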

How the data were processed

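RNA-seq libraries of colitis and CAC tissue and of CAC-derived organoids were used, 18 in all. The deposited values are whole-number read counts per gene, which the authors did not normalize. A table of their own log2 fold changes and p-values was not used. The submitters' processing notes name STAR 2.6.1d, HTSeq 0.11.2, DESeq2 and mm10, with no role stated. The methods describe mapping to mm10 and assembly of transcripts with Cufflinks on Gencode v.M8. Which tool made the counts and the strand setting are not given in the sources used here.

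Genotypes were compared within each model with edgeR 4.0.16 in R 4.3.3 (TMM, filterByExpr, glmQLFit, glmQLFTest), with Benjamini-Hochberg adjustment over all genes tested, and called at an adjusted p under 0.05. Interactions and models were contrasts in 1 fit of 18 libraries. DESeq2 1.42.0, other scalings, no filter, a replicate block, covariates and leaving out each library were alternatives, of which scaling by total counts and by epithelial markers were added after seeing the data. Coordinates and exon lengths are from GENCODE M21. Same-numbered colitis libraries deviated together (r = 0.25, 0.11 and 0.52), so the blocked count is given there. On simulated data from these counts with a 4-fold change, edgeR recovered 159 of 196 changed genes in colitis, 116 of 195 in CAC and 178 of 194 in organoids, with 9, 7 and 15 false calls, and DESeq2 recovered 172, 159 and 181 with 29, 74 and 41 false calls. Counts of replicates differed by more than sampling noise in every pair (chi-square over its degrees of freedom 7.44 to 143.5).

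The genes and lists were chosen with earlier results of these data known. All 10 genes enter every comparison, with those not called given by value or by range, and of each list the counts and at most 4 called genes per direction with the largest change are named, except that some genes are not reported here. Medians are given for part of the lists.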

Additional observations from a re-analysis of the deposited data

Results flagged for a closer look

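The genotype difference differed between models for 6 of the 10 genes, by the interaction test in edgeR, where 23.3% of all genes were called between organoids and CAC and 7.11% between organoids and colitis. Between organoids and CAC, as the log2 fold change in organoids minus that in CAC, the values were −1.92 for Notch1, 1.26 for Dll1, −1.88 for Dll4, −1.08 for Hes1 and −2.40 for Hes6. Hes6 was higher in all 3 CAC libraries labelled RNF138-/- than in wild type and lower in all 3 organoid libraries labelled RNF138-/-, and so was Dll4. Between organoids and colitis the value for Notch2 was 1.13. With 1 of 12 libraries left out, Dll4 and Hes6 passed in 12 of 12 fits, Dll1 in 7, Notch1 in 5, Notch2 in 4 and Hes1 in 3. In the organoids sex, the fibroblast markers (7 of 7 higher) and genotype moved together and cannot be told apart.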

How the results depend on the processing

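The number of the 10 genes past the test depended on the settings. The number of all genes past the test changed with them. A count without that number beside it is therefore no result about the 10 genes in particular. In CAC, where edgeR called 1, DESeq2 called 5, no filter on low counts 2, the replicate block 2, the fit of all 18 libraries 4, and scaling by epithelial markers and the Y-linked covariate 0 each. In organoids, where edgeR called 4, no filter gave 7 (with 5733 of 28671 genes called overall), total counts 7 (6405 of 15294) and the block 5 (4032), against 5436 of 15294 genes by edgeR. The Y-linked covariate was not run there because the genotypes do not overlap in it. Other settings changed organoid calls too. Among these changes Hes1 and Nrarp were gained with DESeq2, and Dll4 was lost in the fit of all 18 libraries. With epithelial scaling Dll4 was lost and Dll1 and Jag1 were gained. For the difference between CAC and colitis (0), DESeq2, no filter and the block gave 2 each, and for that between organoids and colitis (1), DESeq2 and no filter gave 2 each. Under the block 4 genes in place of 5 passed for organoids minus CAC, with Dll1 and Hes1 lost and Gfi1 gained, and for organoids minus colitis Gfi1 passed in place of Notch2. Leaving out 1 library gave 0 to 2 in CAC, 2 to 8 in organoids, 0 to 2 for CAC minus colitis, 2 to 5 for organoids minus CAC, 0 to 2 for organoids minus colitis and 0 to 1 for CAC against colitis in wild type. Over all genes, colitis calls were 15 by edgeR, 435 by DESeq2, 362 without the filter, 91 with the block and 0 to 147 with a library left out, and CAC calls were 1132, with 4023 by DESeq2 and 0 to 1637 with a library left out.

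Signs turned for Jag1 in CAC with total counts (0.21) and epithelial scaling (0.54), for Nrarp in CAC (0.13) and Notch1 in organoids (0.071) with epithelial scaling, and for Nrarp in CAC minus colitis under the block (0.11). With a library left out, the log2 values ran in colitis from −0.36 to 0.060 (Dll4), −0.37 to 0.13 (Gfi1), −0.40 to 0.0028 (Hes1) and −0.55 to 0.00012 (Hes6), in CAC from −0.25 to 0.069 (Jag1) and −0.66 to 0.28 (Nrarp), and in organoids from −2.13 to 0.48 (Atoh1). They ran from −0.34 to 0.60 for Nrarp in CAC minus colitis and −0.39 to 2.30 for Atoh1 in organoids minus CAC, and in organoids minus colitis from −1.42 to 1.22 (Atoh1), −0.17 to 0.41 (Jag1) and −0.44 to 0.16 (Notch1). In wild-type CAC against colitis they ran from −0.16 to 0.47 (Dll4), −0.062 to 0.30 (Hes1), −0.12 to 0.73 (Hes6), −0.20 to 0.056 (Jag1) and −1.11 to 0.077 (Notch1), and in organoids against CAC labelled RNF138-/- from −0.51 to 0.19 (Nrarp). The cause was not tested.

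Same-numbered CAC libraries had r = 0.03, 0.23 and 0.08, where other pairs ran from −0.15 to 0.05. In the organoids the values were −0.22, −0.09 and 0.08, where other pairs ran from −0.17 to 0.23. A pairing by number is not shown in either, so the block results there rest on shared numbers alone. The fewest counts were 4, for Nrarp and Atoh1 in organoids, and small differences in either were not detectable at this depth.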
